A study of Drosophila melanogaster with 4 samples.

Results

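The small heterochromatin scaffolds 2LHet, XHet and YHet are the shortest pieces of heterochromatin that release 5 of the *Drosophila melanogaster* genome assigns to a chromosome. 2LHet belongs to an autosome arm, and XHet and YHet belong to the sex chromosomes. They are 368.9 kb, 204.1 kb and 347.0 kb long. Their members were all regions of significant Su(var)3-7 enrichment, called clusters here, that the deposited lists place on them. There were 228 such clusters of 23082 in all 3 lists: 113 on 2LHet, 82 on XHet and 33 on YHet. By list they numbered 73 of 5994 in replicate 1, 68 of 5617 in replicate 2 and 87 of 11471 in the list that the authors made for the replicate set. None of the 5 depleted regions of that list lay on these scaffolds.

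ChIP-seq, the sequencing of DNA recovered by immunoprecipitation of chromatin, was done with an antibody against Su(var)3-7, named Q3448, on nuclei of wild-type Oregon-R larvae in the third instar. The 4 libraries were 2 of immunoprecipitated chromatin and 2 of input chromatin, and each ChIP library was paired with the input of its own number. Flies were kept in population cages and larvae were harvested from bottles. The labels give neither their sex nor whether the replicates came from separate collections. The spread between the 2 replicates may therefore be technical. Values are means ± SD over the 2 ChIP replicates where an SD is given. With 2 replicates the smallest two-sided p of an exact permutation test is 0.5. No difference below was therefore tested.

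Heterochromatin is the compact, repeat-rich and gene-poor part of the genome around centromeres, and it makes up the whole Y chromosome. In *Drosophila* it carries methylated histone H3 and the protein HP1. Su(var)3-7 is a zinc-finger protein that binds DNA and partners with HP1, and flies that lack it silence genes near heterochromatin less fully. The Y chromosome is normally carried by males only.

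Su(var)3-7 covered much of 2LHet and XHet and little of YHet. Clusters lay over 42.0% and 51.0% of 2LHet in replicates 1 and 2, over 38.0% and 33.4% of XHet, and over 2.93% and 3.25% of YHet. The means were 46.5% ± 6.38 on 2LHet, 35.7% ± 3.29 on XHet and 3.09% ± 0.227 on YHet (SD, n = 2). YHet stood far below the other scaffolds in both replicates, while 2LHet lay above XHet by less in replicate 1 than in replicate 2. The scaffolds ranked 3 (2LHet), 6 (XHet) and 13 (YHet) among the 13 sequences with clusters, in replicate 1 and in replicate 2.

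Cover on the autosomal scaffold was 1.32-fold ± 0.300 that of XHet (SD, n = 2), at 1.11-fold in replicate 1 and 1.53-fold in replicate 2. This order reversed when clusters were counted per Mb instead of bases, at 0.847-fold. In replicates 1 and 2 there were 111 and 100.3 clusters per Mb on 2LHet and 132 and 118 per Mb on XHet. Relative to YHet, cover was 15.0-fold ± 0.962 higher on 2LHet and 11.6-fold ± 1.92 higher on XHet (SD, n = 2). These folds were 5.08 and 4.30 in the replicate-set list, where 21 clusters covered 12.1% of YHet, and 6.34 and 7.51 by clusters per Mb. They were 55.3 and 38.4 with clusters of at least 2 kb, and 27.8 and 21.7 for bases under clusters of both replicates. On YHet only the cluster of 3749 bp in replicate 1 and that of 2102 bp in replicate 2 reached 2 kb. Bases under both replicates came to only 4.77 kb there. The lists hold no read counts, and the lengths include bases to which reads may not map. How much of YHet could be read was not tested.

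**Figure D1:**
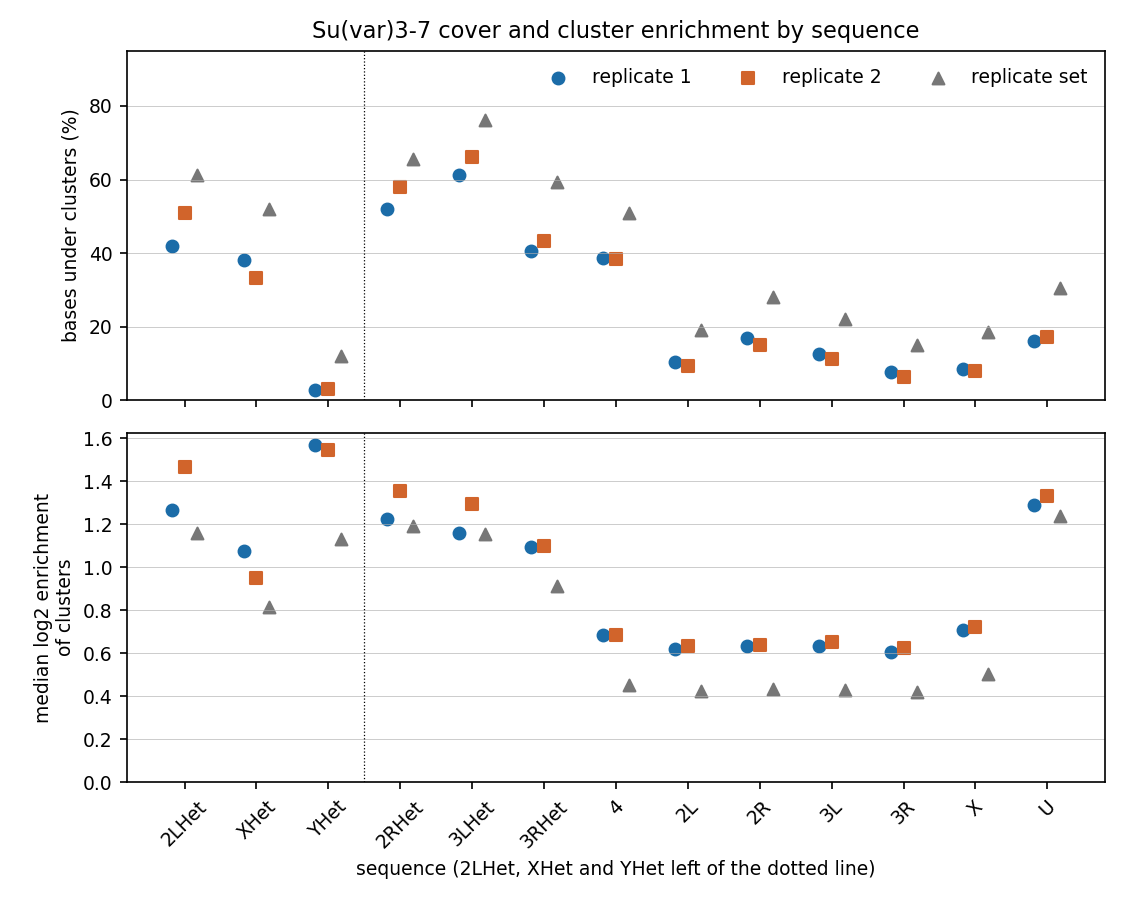
Percent of bases under Su(var)3-7 clusters (top) and median log2 enrichment of clusters (bottom) on each of the 13 sequences. Points are the 2 replicates and the replicate-set list, with 2LHet, XHet and YHet at the left. YHet has the lowest cover, at 2.93% and 3.25% in the replicates, and the highest median value of the 13 sequences there, at 1.57 and 1.55.

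The enrichment of a cluster, the authors' value of ChIP over input read here as log2, ordered the scaffolds differently from cover. Its median was 1.27 and 1.47 on 2LHet in replicates 1 and 2, 1.08 and 0.95 on XHet, and 1.57 and 1.55 on YHet. YHet thus held the fewest clusters and the highest medians, over 5 and 7 clusters. The median on 2LHet exceeded that on XHet by 0.36 ± 0.23 on the log2 scale (SD, n = 2), with 0.19 in replicate 1 and 0.52 in replicate 2. In the replicate-set list the medians were 1.16 on 2LHet, 0.81 on XHet and 1.13 on YHet, so the lead of YHet did not hold there.

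Every cluster of 2LHet in the replicate lists, 41 of 41 and 37 of 37, had a value at or above the median of its list. The same was true of all 5 and all 7 clusters of YHet. On XHet it held for 23 of 27 and for 17 of 24. Of each whole list, 50% lies there by construction. On the larger heterochromatin scaffolds 2RHet, 3LHet and 3RHet the shares were also high. They were 89.2%, 91.8% and 93.1% in replicate 1 and 93.6%, 94.4% and 91.9% in replicate 2. Among the highest 10% of values were 15 and 15 clusters of 2LHet, or 36.6% and 40.5%, against 10.1% and 10% of all clusters in replicates 1 and 2. The larger heterochromatin scaffolds had raised shares as well, at 29.0% and 29.3% on 2RHet, 26.8% and 24.8% on 3LHet, and 16.8% and 17.3% on 3RHet. The share was 45.7% on 2LHet and 45.3% on 2RHet in the replicate-set list. Among the highest 10% in replicates 1 and 2, XHet had 6 of 27 and 1 of 24, and YHet had 3 of 5 and 3 of 7. The clusters of XHet were therefore the least enriched of the 3 scaffolds by this count as well as by their median. This ranks called clusters and not whole scaffolds, as clusters lay over only 2.93% and 3.25% of YHet.

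On 2LHet clusters of 10 kb or more numbered 3 of 41 and 4 of 37 in replicates 1 and 2. They held 29.2% and 34.9% of the summed cluster width. XHet and YHet had 0 in either replicate. Such clusters were 4.04% and 4.81% of all clusters in the 2 lists. At those shares few would be found among the 27 and 24 clusters of XHet or the 5 and 7 of YHet. The larger scaffolds had them as well, with 35 of 314 and 46 of 297 on 2RHet. There were 35 of 280 and 49 of 270 on 3LHet, and 16 of 262 and 22 of 260 on 3RHet. The widest cluster measured 17.5 kb and 19.1 kb on 2LHet, 7.32 kb and 7.58 kb on XHet, and 3.75 kb and 2.10 kb on YHet. Median widths were 2663 and 3173 bp on 2LHet, 2795 and 2646 bp on XHet, and 1696 and 1494 bp on YHet.

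On 2LHet many clusters lay close together in blocks. When replicate-set clusters with gaps under 2 kb were joined, 4 blocks of 20 kb or more appeared on 2LHet, 1 on XHet and 0 on YHet. Blocks were drawn on these 3 scaffolds only, and their counts are not scaled to length. Their cover in the replicates is not independent, as the replicate-set list was made from the same 2 ChIP libraries. The longest block ran from 2LHet 151015 to 209342 (58.3 kb) and was 78.0% and 90.6% covered in replicates 1 and 2. The block from 2LHet 15684 to 62536 (46.9 kb) was 78.0% and 90.4% covered, and that from 237432 to 261856 (24.4 kb) was 80.0% and 89.5% covered. The last, from 276709 to 302912 (26.2 kb), was less filled, at 61.2% and 64.3%. The block of XHet, from 46236 to 81613 (35.4 kb), was 61.0% and 54.0% covered. No list had a cluster from 2LHet 62537 to 120423 (57.9 kb) or from 214605 to 237431 (22.8 kb). These were the only stretches of 10 kb or more on 2LHet that were empty in all 3 lists.

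The widest region of 2LHet in the replicate-set list was 151015 to 177189, which spanned 26.2 kb at a log2 value of 1.78. It was 92.3% covered in both replicates, by 4 clusters of replicate 1 with values from 1.20 to 2.07 and by 2 clusters of replicate 2 with 1.42 and 2.00. The next widest, 2LHet 242003 to 261856, spanned 19.9 kb and was a single cluster in each replicate, with 1.79 in replicate 1, 1.99 in replicate 2 and 1.84 in the replicate-set list. The replicate 1 cluster of this region, 244233 to 261715, was the widest of its list on 2LHet. In replicate 2 the widest was 2LHet 19802 to 38888, with a value of 1.75, where replicate 1 had 2 clusters with values of 0.84 and 1.91.

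The highest replicate-set value on 2LHet that both replicates shared belonged to a narrow region, 15684 to 17783. This 2.10 kb region had 2.21 in replicate 1, 1.71 in replicate 2 and 1.98 in the replicate-set list. It was followed by 2LHet 44139 to 54186 (10.0 kb, 1.87) and by the region at 242003 to 261856. In replicate 1 the highest cluster of 2LHet was 40304 to 43355 at 2.21, and replicate 2 had 1.97 at that place. In replicate 2 the highest was 351510 to 353589 at 2.86, where replicate 1 had no cluster. The next highest of replicate 2, 331178 to 332493 at 2.35, overlapped a replicate 1 cluster, 329922 to 331658 at 2.05, in part. The overlap was 36.6% of the replicate 2 cluster and 27.7% of the replicate 1 cluster, whose value occurred 3 times in its list.

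**Figure D2:**
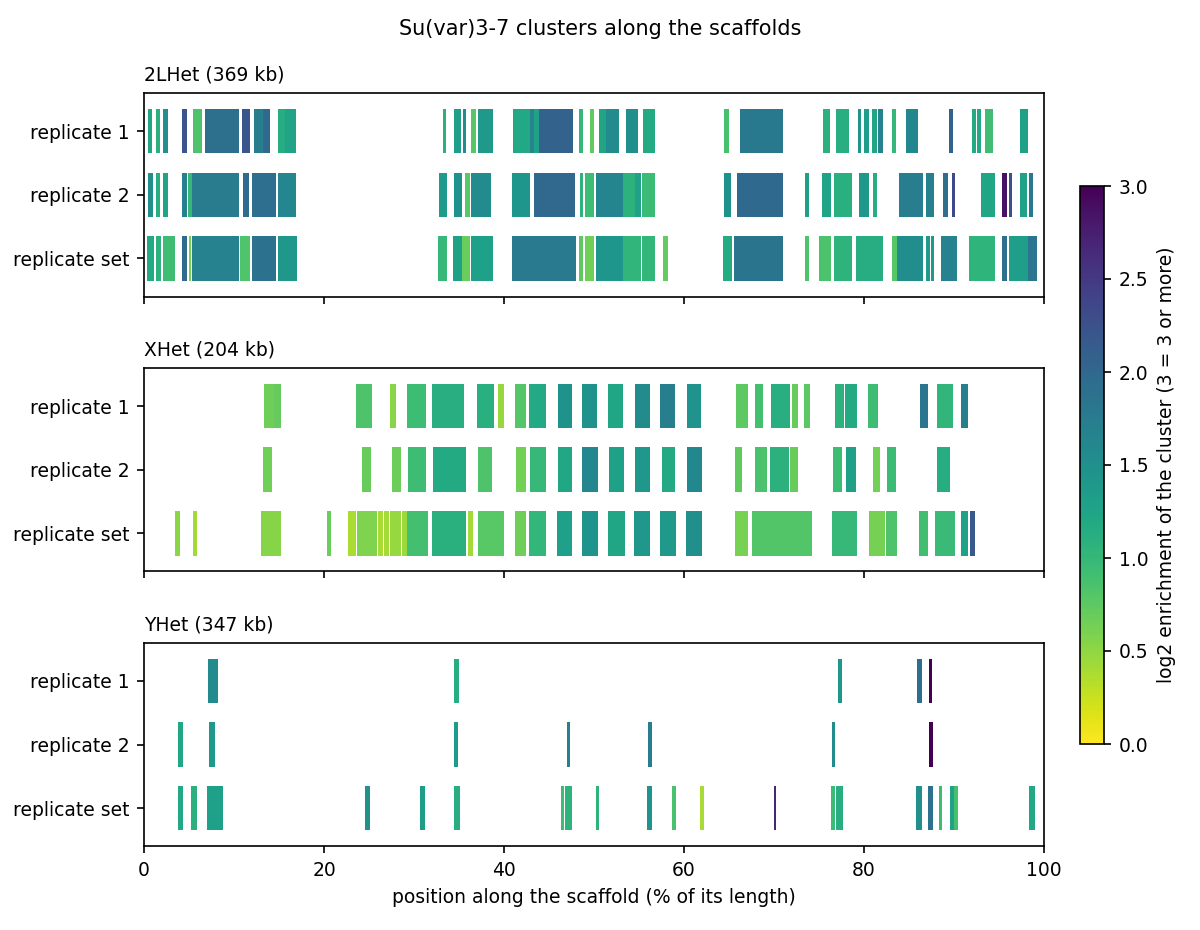
Clusters of the 2 replicates and of the replicate-set list along 2LHet, XHet and YHet, with position as percent of the scaffold's length and colour as log2 enrichment (values over 3 share the darkest colour). 2LHet shows blocks of clusters and a 57.9 kb stretch with no cluster, XHet shows evenly spaced clusters near its middle, and YHet shows 5 and 7 scattered clusters in the replicates.

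XHet was more covered in its middle than towards its ends. In 4 equal parts from base 1, cover was 13.7%, 59.8%, 51.3% and 27.3% in replicate 1 and 7.08%, 56.5%, 49.0% and 21.0% in replicate 2. The replicate-set list gave 24.5%, 78.6%, 63.6% and 40.9%. On 2LHet the same 4 parts differed less, at 45.2%, 45.5%, 40.3% and 37.0% in replicate 1 and 52.4%, 50.1%, 50.9% and 50.8% in replicate 2. They were 59.0%, 56.2%, 54.9% and 75.2% in the replicate-set list, where the last part was the highest, although it was the lowest in replicate 1. No list had a cluster on XHet from 188389 to 204112 (15.7 kb), from 12054 to 26524 (14.5 kb) or from 31169 to 41443 (10.3 kb).

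Near the middle of XHet lay a run of 7 consecutive clusters of like width at nearly equal distances. These clusters were singled out after their positions had been seen. In replicate 1 they extended from XHet 87399 to 126399 and in replicate 2 from 87587 to 126638. Their centres lay 5922 ± 204 bp apart in replicate 1 and 5927 ± 122 bp apart in replicate 2 (SD over the 6 distances within a list). Single distances lay between 5665 and 6181 bp in replicate 1 and between 5755 and 6132 bp in replicate 2. The replicate-set list had the same run, from 87360 to 126619, with centres 5918 ± 126 bp apart.

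The replicates placed these 7 clusters at nearly the same positions, with centres 0.5 to 212 bp apart between the lists. Widths lay between 3169 and 3676 bp in replicate 1 and between 3027 and 3695 bp in replicate 2, and each cluster was wider than the bare interval to the next. In order along the scaffold the log2 values of replicate 1 were 1.19, 1.49, 1.47, 1.22, 1.56, 1.72 and 1.46. Those of replicate 2 were 0.98, 1.21, 1.61, 1.30, 1.41, 1.19 and 1.59. The values of the replicates differed by up to 0.53 at a single cluster, the sixth, and neither list showed a steady rise or fall along the run.

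The evenness was set against every run of 7 consecutive clusters in each list, where neighbouring runs share clusters. The coefficient of variation of the distances was 3.44% in replicate 1 and 2.05% in replicate 2 on XHet, the lowest of 5917 and 5539 runs. The lowest value on any sequence other than 2LHet, XHet and YHet was 7.55% and 7.90%, and the median over all runs was 83.4% and 82.2%. Widths in the XHet run varied by 4.78% and 7.27%, against 37.4% and 26.0% in the most evenly spaced run elsewhere. In the replicate-set list the XHet run also ranked 1, at 2.14% among 11393 runs. The ranks are a description of these lists and are not a test.

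The run held 30.8% and 34.5% of the covered bases of XHet in replicates 1 and 2, against 25.9% and 29.2% of its clusters. Its median log2 value was 1.47 in replicate 1 and 1.30 in replicate 2, against 0.92 over the other 20 clusters and 0.86 over the other 17 clusters of XHet. Its clusters supplied the 3 highest replicate-set regions of XHet that both replicates shared. XHet 122910 to 126619 had 1.51, 99314 to 103002 had 1.45 and 111128 to 114857 had 1.40. The highest cluster of XHet in replicate 2, 99363 to 103057 at 1.61, was also part of the run.

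Outside the run, XHet clusters were narrower at the median, at 2220 and 2074 bp in replicates 1 and 2. The run itself had 3420 and 3464 bp. The 2 widest replicate-set regions of XHet nevertheless lay outside the run, with values below its replicate-set median of 1.38. The widest region of the replicate-set list was XHet 137855 to 151522 (13.7 kb, 0.81), which 4 clusters of each replicate covered to 66.2% and 66.4%. Next was 65206 to 73036 (7.83 kb, 1.09), the place of the widest cluster in both replicates, with 1.12 in replicate 1 and 1.18 in replicate 2. In replicate 1 the highest cluster of XHet was 175977 to 177853 at 1.83, where replicate 2 had none. Its value occurred 10 times in the list of replicate 1. The highest value of XHet in the replicate-set list, 2.18 at 187388 to 188388, was 1001 bp wide, lay under no replicate cluster and occurred 16 times in its list.

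**Figure D3:**
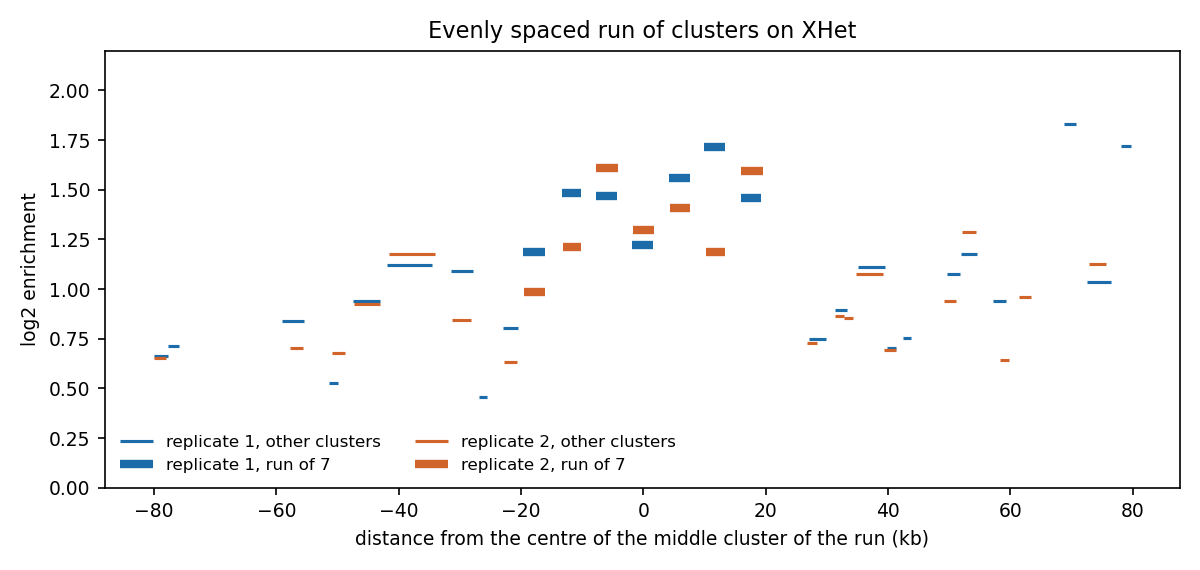
Log2 enrichment of each cluster of XHet in the 2 replicates (vertical axis) against distance in kb from the centre of the middle cluster of the run in the replicate-set list, with bars as wide as the clusters. Thick bars are the run of 7, whose centres lie 5922 bp apart in replicate 1 and 5927 bp apart in replicate 2, and thin bars are the other clusters.

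YHet held few and scattered clusters, and 3 places were shared by the replicates. At YHet 302670 to 303981 replicate 1 had 3.15, and at 302810 to 304165 replicate 2 had 3.31, the highest values of all 3 scaffolds in either replicate. The replicate-set list gave the region around them, 302403 to 304276, a value of only 1.87, below both replicates. The second shared place was 24626 to 28374 in replicate 1 (1.57) and 25181 to 27282 in replicate 2 (1.39), and it was also the widest cluster of YHet in each. The third was 119624 to 121524 in replicate 1 (1.14) and 119636 to 121129 in replicate 2 (1.36).

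The remaining clusters of YHet were found in 1 replicate each. Replicate 1 alone had YHet 267539 to 269036 (1.42) and 298133 to 299828 (1.92). Replicate 2 alone had 13164 to 14989 (1.21), 162961 to 164337 (1.70), 194163 to 195921 (1.74) and 265198 to 266553 (1.55). The widest YHet regions of the replicate-set list were 24220 to 30357 (6.14 kb, 1.31) and 162331 to 165018 (2.69 kb, 1.06). Its highest value, 2.69 at 242807 to 243807, lay under no replicate cluster and occurred 22 times in the list. In all 3 lists together 10 stretches of 10 kb or more were empty and made up 74.8% of YHet, the longest from 30358 to 85256 (54.9 kb). On 2LHet and XHet such stretches made up 21.9% and 19.8%.

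Values that occurred more than once in a list were frequent on YHet. They belonged to 4 of 5 and 5 of 7 of its clusters in replicates 1 and 2, against 33.1% and 34% of all clusters. In the replicate-set list they belonged to 13 of 21, against 42.8%. On 2LHet they belonged to 16 of 41 and 10 of 37, and on XHet to 7 of 27 and 8 of 24. The depth behind the clusters is unknown, and the part that few reads may have in the values of YHet was not tested. The shared clusters with 3.15 and 3.31 had values found once in their lists.

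The replicates overlapped to like extents on 2LHet and XHet and less on YHet. Bases under clusters of both replicates were 69.5% of those under either on 2LHet, 71.7% on XHet and 28.6% on YHet, against 61.0% over all 13 sequences. On the larger scaffolds the shares were 82.1% (2RHet), 84.9% (3LHet) and 71.4% (3RHet), all above 2LHet. With clusters of at least 2 kb only, the share on YHet was 56.1%, from 1 cluster in each list. By number, clusters of replicate 2 overlapped 38 of 41 replicate 1 clusters on 2LHet, 22 of 27 on XHet and 3 of 5 on YHet, against 69.4% of all replicate 1 clusters. In the other direction the counts were 30 of 37, 23 of 24 and 3 of 7, against 74.2% of all replicate 2 clusters. Denser cover raises both the share of bases and the overlaps under this 1 bp rule by position alone. Neither kind of share therefore ranks the agreement of the replicates across the scaffolds.

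Clusters that overlapped one to one numbered 19 on 2LHet, 19 on XHet and 3 on YHet. Their log2 values differed between the replicates by a median of 0.21 on 2LHet, 0.14 on XHet and 0.18 on YHet. The largest difference was 0.76 on 2LHet, at 130569 to 131902 in replicate 1 (1.54) and 131649 to 133508 in replicate 2 (0.78). This pair overlapped over only 19.0% of the replicate 1 cluster and 13.7% of the replicate 2 cluster, with centres 1343 bp apart. On XHet replicate 1 was higher in 12 of 19 pairs, and on 2LHet it was higher in 8 of 19. Pearson's r across the pairs was 0.72 on 2LHet and 0.83 on XHet. These clusters share their libraries and are not independent samples.

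**Figure D4:**
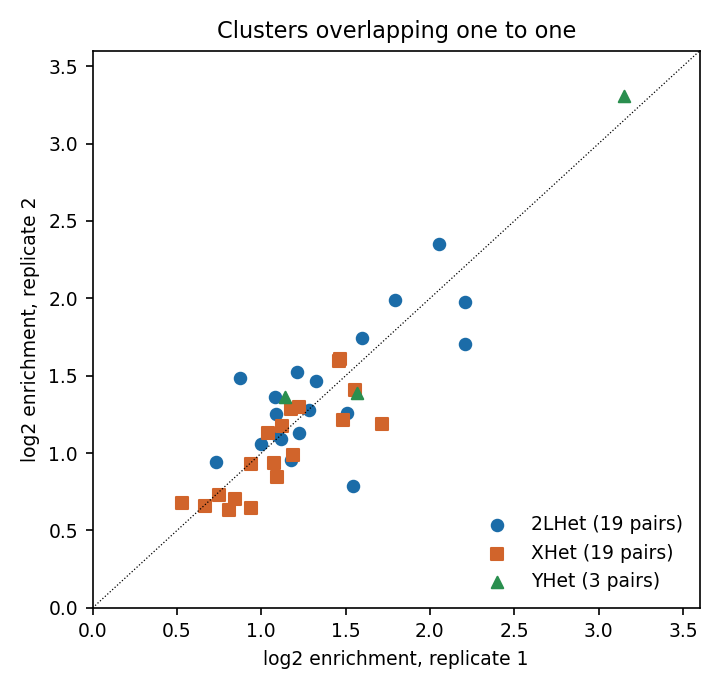
Log2 enrichment in replicate 2 (vertical axis) against replicate 1 (horizontal axis) for clusters of the 2 lists that overlap one to one, with the dotted line at equal values. Most of the 19 pairs of 2LHet lie above 1 in both replicates, those of XHet extend below 1, and 1 of the 3 pairs of YHet lies at 3.15 and 3.31.

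The replicate-set list split the scaffolds further. Of its clusters 27 of 35 on 2LHet, 19 of 31 on XHet and 3 of 21 on YHet lay on clusters of both replicates, against 30.7% of the whole list. Those found in neither replicate were 1 of 35 on 2LHet, 9 of 31 on XHet and 12 of 21 on YHet, against 44.1% of the whole list. On 2RHet, 3LHet and 3RHet the shares were 69.3%, 73.3% and 53.6% in both and 14.6%, 17.4% and 26.5% in neither. Denser cover raises such overlaps by position alone. On XHet the clusters found in both were 3734 bp wide at the median with a median log2 value of 0.96, and those found in neither 1090 bp with 0.42. On YHet the medians were closer, at 2342 bp and 1.31 in both and at 1490 bp and 1.07 in neither. The list was made from the same 2 ChIP libraries, so these shares are not independent of the replicate lists.

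Each scaffold was then compared with the assembled arm of its own chromosome. Cover on 2LHet was 4.69-fold ± 1.00 that of the 2L arm, and cover on XHet was 4.28-fold ± 0.174 that of the X arm (SD, n = 2). Both replicates gave more cover on the scaffold than on the arm, at 42.0% and 51.0% on 2LHet against 10.6% and 9.46% on 2L, and at 38.0% and 33.4% on XHet against 8.64% and 8.04% on X. In the replicate-set list the folds were 3.19 for 2LHet and 2.79 for XHet, and with clusters at or above the list median alone they were 8.47 and 5.62.

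The scaffolds differed in how they compared with the nearest part of the arm, the stretch of the scaffold's own length at its centromere-proximal end. This comparison was added after the data had been seen. 2LHet had less cover than 2L 22642673 to 23011544, at 42.0% and 51.0% against 72.2% and 77.1% in replicates 1 and 2 (ratio 0.622 ± 0.0565, SD, n = 2). XHet had more cover than X 22218716 to 22422827, at 38.0% and 33.4% against 26.4% and 23.4% (ratio 1.43 ± 0.00836, SD, n = 2). Median log2 values were 1.27 and 1.47 on 2LHet against 1.20 and 1.43 in that stretch of 2L, and 1.08 and 0.95 on XHet against 0.75 and 0.82 in that of X. The replicate-set medians were 1.16 on 2LHet against 1.27 in that stretch of 2L, the reverse order, and 0.81 on XHet against 0.50 in that of X. In the replicates the autosomal scaffold thus had medians slightly above those at the end of its arm and was less filled. XHet was above the end of the X arm in both measures and in both replicates.

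Cover on 2LHet lay within the range of the larger heterochromatin scaffolds in both replicates, and cover on XHet and YHet lay below it. The 3 larger scaffolds 2RHet, 3LHet and 3RHet had between 40.5% and 61.2% in replicate 1 and between 43.4% and 66.1% in replicate 2. Their median log2 values lay between 1.09 and 1.23 in replicate 1 and between 1.10 and 1.35 in replicate 2. 2LHet was above these medians, XHet below them and YHet above them in both replicates. In the replicate-set list XHet was again below all 3, but 2LHet (1.16) was below 2RHet (1.19), and YHet (1.13) was below 2RHet and 3LHet (1.15). Widest clusters of the larger scaffolds measured 21.7 to 47.4 kb in replicate 1 and 24.2 to 82.5 kb in replicate 2, wider than any cluster of 2LHet, XHet or YHet in the same list.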

How the data were processed

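The submitters' processing notes name Bowtie 0.12.7. The authors deposited 3 lists of regions, 1 per ChIP replicate and 1 for the replicate set, on FlyBase release 5 per the file headers. Not given in the sources used here are the caller, its threshold and how the replicates were combined. The value of each region is the authors' deposited log2 enrichment over input. The log2 scale was inferred, because frequent values lay exactly 1 apart. The input libraries have no value of their own, and depth is unknown.

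Cover was the union of clusters divided by the sequence length in the headers, computed with Python 3.11.15 and NumPy 2.4.6 and checked on simulated lists. Overlap required at least 1 bp. In each list 1 cluster, on another sequence, ran past the sequence end and was clipped. Assembly gaps were not removed. Gene annotation and sequence of release 5 were not used here, because the gene table at hand is on release 6.

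The scaffolds, comparisons and alternatives were chosen with earlier results of these data known. Named regions were the 3 highest replicate-set clusters found in both replicates, the 2 widest, the highest and widest of each replicate list, and every replicate cluster of YHet. The highest replicate-set values found in neither replicate, the blocks and the evenly spaced run were added after their values had been seen.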

Additional observations from a re-analysis of the deposited data

How the results depend on the processing

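No paired analysis was possible because the input libraries have no list of their own, so no fit over ChIP and input with the replicate number as a block could be made. The ratios were formed within each replicate list and then averaged. Leaving out either of the 2 replicates only returned the value of the other. For cover that was 1.11 to 1.53 for 2LHet over XHet and 14.4 to 15.7 for 2LHet over YHet. It was 10.3 to 13.0 for XHet over YHet, 3.98 to 5.39 for 2LHet over 2L and 4.15 to 4.40 for XHet over X. For the difference in median log2 value of 2LHet and XHet it was 0.19 to 0.52. In the replicate-set list cover was 5.08-fold for 2LHet over YHet, 4.30-fold for XHet over YHet, 3.19-fold for 2LHet over 2L and 2.79-fold for XHet over X. Clusters per Mb gave 6.34, 7.51, 3.28 and 3.78 for the same ratios and reversed 2LHet over XHet to 0.847. Clusters of at least 2 kb gave 55.3 for 2LHet over YHet, 38.4 for XHet over YHet and 5.41 for XHet over X. Bases under both replicates gave 27.8, 21.7 and 5.66 for these. The folds over YHet rested on few bases. They were clusters of 3749 bp (replicate 1) and 2102 bp (replicate 2), and 4.77 kb under both replicates. The higher-scoring portion of each replicate list, with values at or above its median, gave 8.47 for 2LHet over 2L and 5.62 for XHet over X, and lengths up to the last cluster gave 4.63 for XHet over X. Against proximal windows of equal length the ratio reversed to 0.622 for 2LHet and was 1.43 for XHet. Overlap of the replicates on 2LHet was 71.5% with clusters of at least 2 kb and 68.7% with clusters closer than 1 kb merged. By number of clusters it was 87.2%, and 76.9% when 50% of a cluster had to be overlapped. On XHet these values were 78.1%, 72.1%, 88.2% and 80.4%, and 65.6% in the higher-scoring portion. On YHet they were 56.1% with clusters of at least 2 kb and 50% by number under both rules. The causes were not tested.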

Other observations

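The evenly spaced run of XHet was also examined with other numbers of clusters. With 5 clusters the most even run of XHet had distances of 5922 bp in replicate 1 and 5918 bp in replicate 2, with coefficients of variation of 2.67% and 0.468%. With 6 clusters these were 3.04% and 1.31%, and the run ranked 1 in both replicates at either number. With 8 clusters the coefficient was 14.4% in replicate 1 and 14.1% in replicate 2, and the run ranked 4 and 5. With 9 clusters it was 15.7% and 19.1%, and the run ranked 3 and 8.

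The replicate-set value often lay below both replicates. Among replicate-set clusters with a single overlapping cluster in each replicate, it was below both values in 12 of 16 on 2LHet, in 9 of 15 on XHet and in 3 of 3 on YHet, against 59.5% of 2605 such clusters in the whole list. It lay above both in 0 of these 34 clusters of the scaffolds and in 15 of the whole list.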
